A study of Mus musculus with 4 samples.

Results

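Of 2431 deposited cells from mouse atherosclerotic plaques, 140 formed the upper end of a cartilage score. They are described here as chondrocyte-like vascular smooth muscle cells (VSMCs). Before deposit, the authors had kept only cells of clusters expressing Confetti, a reporter of VSMC origin. The score of a cell was the mean of log2(value + 1) over 8 cartilage genes, Col2a1, Cytl1, Chad, Col11a2, Col9a3, Acan, Snorc and Hapln1, where a value is the number of unique molecular identifiers (UMIs, each standing for 1 captured RNA molecule) of a gene per 10000 UMIs of the cell. Because the cells were chosen by these values, the levels of the 8 genes and every contrast with other cells of the same plaques are descriptions and carry no test.

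Plaques had been micro-dissected from the aorta and carotid arteries, digested and loaded for droplet-based single-cell RNA sequencing, which reads the 3′ ends of transcripts. There was 1 library for each of 2 genotypes, and how many mice were pooled into each is not given in the sources used here. ApoE-/- plaques came from Myh11-CreERt2/Confetti/ApoE-/- males and Trf2T188A/ApoE-/- plaques from Myh11-CreERt2/Confetti/Sm22a-Trf2T188A/ApoE-/- males, both on a C57Bl/6 background. Both groups lacked ApoE, which raises blood cholesterol, received 10 tamoxifen injections over 2 weeks from 6 weeks of age to switch on the Confetti fluorescent reporter in cells expressing Myh11, and then ate a high fat diet for 14 weeks. The second group differed by a transgene for Trf2T188A, a point mutant of the telomere protein TRF2, under a minimal promoter of Sm22a, a VSMC gene also called Tagln. The Confetti label depends on recombination in Myh11-expressing cells. The transgene depends on the minimal promoter, which the study describes as staying active when VSMCs change state. With 1 library per genotype the mice, the dissection, the library and the genotype cannot be told apart, so no p-value is given, and the 95% intervals printed below cover counting error only.

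VSMCs of the artery wall normally express a contractile apparatus of actin, myosin and their regulators. In plaques some of them lose it and take on other programmes, and a part of these cells make cartilage matrix under SOX9, the transcription factor that directs chondrocyte formation. Cartilage is built from type II, IX and XI collagen fibrils and aggrecan, and when chondrocytes become hypertrophic they switch on type X collagen and mineral-binding proteins such as bone sialoprotein. Chondrocyte-like VSMCs are known from calcifying plaques.

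The genome context of 3 genes on which the results turn is shown first. Acan, the aggrecan gene, was found in every chondrocyte-like cell, Ibsp, encoding bone sialoprotein, had the highest ratio outside the score, and Chil1, encoding a secreted chitinase-like protein of cartilage and of inflammation, differed most between the genotypes. In GRCm38, Acan lies on chromosome 7 from 79053483 to 79115099 on the plus strand, Ibsp on chromosome 5 from 104299171 to 104311469 on the plus strand, and Chil1 on chromosome 1 from 134182176 to 134190181 on the plus strand, all protein coding. Their RefSeq promoter windows (GRCm38.p6, 250 bases before to 50 bases after the start, all plus strand, 5′ to 3′) are at chr7:79052976-79053275, chr5:104299037-104299336 and chr1:134181906-134182205. The start here is that of the promoter reference and differs from the gene starts printed above. For Acan the window ends before the printed gene start.
Acan: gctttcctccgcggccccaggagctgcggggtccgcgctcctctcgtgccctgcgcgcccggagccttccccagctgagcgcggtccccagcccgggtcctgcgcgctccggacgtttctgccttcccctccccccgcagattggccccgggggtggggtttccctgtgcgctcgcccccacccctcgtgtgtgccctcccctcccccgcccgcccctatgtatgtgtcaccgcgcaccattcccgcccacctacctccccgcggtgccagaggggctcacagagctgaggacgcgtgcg
Ibsp: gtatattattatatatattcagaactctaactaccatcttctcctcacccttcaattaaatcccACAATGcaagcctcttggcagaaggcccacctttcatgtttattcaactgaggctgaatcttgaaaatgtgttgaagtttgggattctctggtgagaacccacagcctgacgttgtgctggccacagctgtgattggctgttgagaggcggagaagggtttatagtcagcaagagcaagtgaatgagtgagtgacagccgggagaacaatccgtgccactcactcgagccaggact
Chil1: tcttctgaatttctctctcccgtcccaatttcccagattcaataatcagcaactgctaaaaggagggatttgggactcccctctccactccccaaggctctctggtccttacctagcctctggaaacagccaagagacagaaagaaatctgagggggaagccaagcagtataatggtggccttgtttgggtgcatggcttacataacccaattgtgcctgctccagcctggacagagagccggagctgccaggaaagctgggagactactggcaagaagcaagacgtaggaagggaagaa
Capitals mark a match, on either strand, to ACAAAG or ACAATG (cores bound by SOX factors), TGTGGT (the RUNX core) or TTGCNNAA (a C/EBP site). The Ibsp window held 1 match, ACAATG at 186 bases before the start used by the promoter reference, and the Acan and Chil1 windows held none. Among all 32851 promoter windows of this length, 18.7% held ACAAAG, 12.6% ACAATG, 16.8% TGTGGT and 10.8% TTGCNNAA. Of the 8 score genes, 5 had a window in this reference, and the window of Hapln1 was the only one of these 5 with a match, to TGTGGT. Guanine and cytosine made up 74.0% of the Acan window, 46.3% of that of Ibsp and 51.3% of that of Chil1, beside a median of 52.7% over all windows. The windows were not tied to expression by any test.

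The score declined without a gap, so the number of chondrocyte-like cells follows from where the line is drawn. The last 5 cells taken in scored 1.92, 1.91, 1.91, 1.90 and 1.88, and the first 5 left out 1.87, 1.84, 1.84, 1.80 and 1.78. Scores ran from 1.88 to 5.65 in the 140 cells, with a median of 3.40, against a median of 0.0810 in the other 2291 plaque cells. All 8 genes had a UMI in 67 of the 140 cells, 7 genes in 29, 6 in 23, 5 in 18 and 4 in 3. Among the other plaque cells, 1 cell had all 8 and 702 had none.

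**Figure D1:**
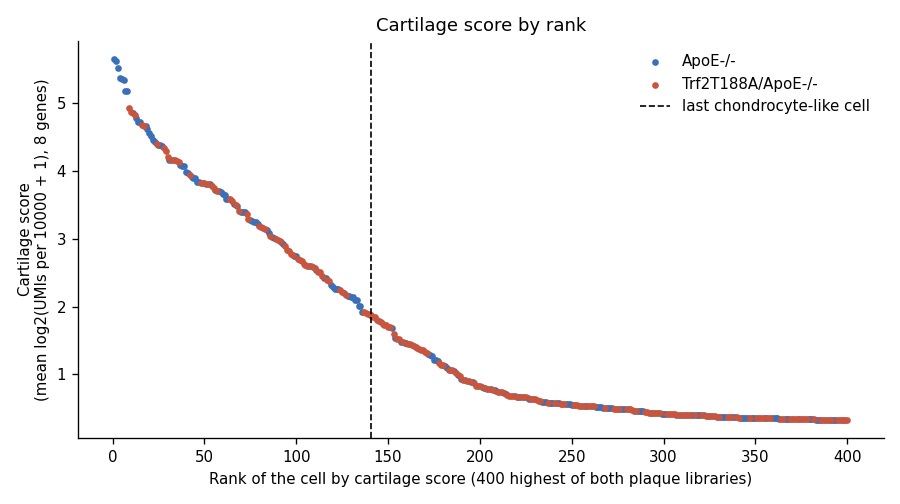
Cartilage score of the 400 highest-scoring plaque cells (vertical axis, mean log2 of UMIs per 10000 plus 1 over 8 genes) by rank (horizontal axis), coloured by library. The dashed line after rank 140 marks the last chondrocyte-like cell, at 1.88, and there is no gap at the line. The 8 highest cells, up to 5.65, are from ApoE-/- plaques, and below 4.93 the libraries are intermixed.

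The ApoE-/- library held 82 of the cells, 5.46% of its 1502 (exact Clopper-Pearson 95% interval, 4.37 to 6.73%). From the Trf2T188A/ApoE-/- library came 58, 6.24% of 929 (4.77 to 7.996%). The intervals overlapped, and since the line was drawn on both libraries together each share depends on the other library. The order of the shares also depended on the line. With 100 cells they were 4.13% and 4.09%, and with 200 cells 6.99% and 10.2%. The chondrocyte-like cells were deeply sequenced, with a median of 38095 UMIs in ApoE-/- and 32738.5 in Trf2T188A/ApoE-/- cells against 22110.5 and 24206 in other cells of the same libraries. The shallowest had 7163 and 2360 UMIs. No cell barcode was shared between the plaque libraries. The same series holds 2 libraries of carotid arteries taken 28 days after ligation, labelled wild type control and SM22a-TRF2T188A, for which no ApoE deletion or high fat diet is named. Plaque shares are over cells of clusters kept for Confetti. For the ligation libraries the study describes no such choice and found endothelial and immune cells, so their shares have another base. Of the control cells there, 0 of 4967 reached the score of the last chondrocyte-like cell, which allows a share of up to 0.0604% (3 counts of the total), and 3 of 5392 cells of the SM22a-TRF2T188A library did (0.0556%, 0.0115 to 0.163%).

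Of the 140 cells, 97 held at least 1 UMI from the Confetti reporter genes, or 69.3% (60.9 to 76.8%). The share was 52 of 82 cells in ApoE-/- and 45 of 58 in Trf2T188A/ApoE-/- plaques. Other plaque cells carried one in 85.2% (83.6 to 86.6%), and the 1000 most contractile cells in 92.1% (90.3 to 93.7%), although both were sequenced less deeply. In 25 of the 140 cells 2 or more reporter genes had a UMI, against 820 of 2291 other cells. The cells next to them in score had a reporter UMI in 70.7% and the fibromyocyte comparison cells described below in 77.9%. The remaining chondrocyte-like cells without a reporter UMI carry no direct evidence of their own that they descend from Myh11-expressing cells.

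The type II collagen gene led the score. Col2a1 ranged from 6.96 to 1396 UMIs per 10000 with a median of 236 in ApoE-/- cells, and from 0 to 900.0 with a median of 92.5 in Trf2T188A/ApoE-/- cells. In other plaque cells the mean was 0.483, and the log2 ratio of means, with 1 added to each mean, was 7.36. It was detected in 139 of the 140 cells. With every cell thinned to 8000 UMIs and shallower cells left out (92 of the ApoE-/- and 122 of the Trf2T188A/ApoE-/- library), a UMI was found in 100% and 96.2% of chondrocyte-like cells and in 11.9% of the contractile comparison cells that were deep enough, which should lack the gene, so shares near that level are background. Acan, the aggrecan core protein, was found in all 140 cells, with medians of 21.2 and 17.9 and ranges of 1.13 to 94.0 and 2.27 to 54.7. Detection of Acan alone was not particular to these cells. In the ligation libraries 2705 of 4967 control and 3250 of 5392 SM22a-TRF2T188A cells had a UMI, at means of 1.62 and 1.55. Cytl1, a small secreted protein of cartilage, was uneven, with medians of 10.3 and 39.4 and highest cells of 341 and 221. Chad, encoding the matrix protein chondroadherin, had medians of 6.22 and 6.45 and highest cells of 191 and 126. Snorc, a chondrocyte membrane proteoglycan, was found in 51 of 82 and 30 of 58 cells with medians of 0.442 and 0.195. Col11a2, Col9a3 and Hapln1, which encode chains of types XI and IX collagen and the link protein that binds aggrecan to hyaluronan, had medians between 3.74 and 7.88.

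The contrast with all other plaque cells covered 11444 genes detected in at least 10% of either group, and a log2 ratio of 1 or more, a doubling of mean plus 1, was taken as the line for a called difference. By this line 143 genes (1.25% of those tested) were higher in the chondrocyte-like cells and 211 (1.84%) were lower, around a median log2 ratio of −0.05. Within the ApoE-/- library the shares were 1.30% higher and 2.07% lower, and within the Trf2T188A/ApoE-/- library 1.30% and 1.69%. Of the 143 genes, 116 passed the line in both libraries and all 143 had the same sign in both. For the 211 lower genes these counts were 181 and 211. The values below belong to the same contrast as the choice of cells.

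Other genes of cartilage matrix, none of them in the score, were mostly high. Of 28 listed, 24 were measurable, 14 were past the line upwards and 1 downwards, and the median log2 ratio was 1.41. Col11a1, the alpha 1 chain of type XI collagen, averaged 21.4 in ApoE-/- and 6.24 in Trf2T188A/ApoE-/- cells against 0.0164 in other plaque cells (log2 ratio 3.98). Comp, a matrix protein that binds collagen, averaged 27.7 and 30.4 against 1.69 (3.47), but with medians of only 1.30 and 7.81 and highest cells of 258 and 187. Fmod, the collagen-binding proteoglycan fibromodulin, was even, with medians of 16.7 and 11.5 and a ratio of 3.64. Col9a1, Col9a2, Col27a1, Cnmd, Scrg1, Mia and Clec3a had ratios between 1.06 and 2.56, and the type VI collagen genes Col6a1, Col6a2 and Col6a3 between 1.41 and 2.13. Prg4, the lubricating proteoglycan of joint surfaces, completed the higher genes (2.23), and Wfdc1 was the lower one (−1.05). Not every cartilage gene was widespread. Matn1 and Matn3, which encode matrilins, had a UMI in 2 and 8 of the 140 cells, Ucma in 39, and Epyc had no UMI among the 5555901 of these cells.

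**Figure D2:**
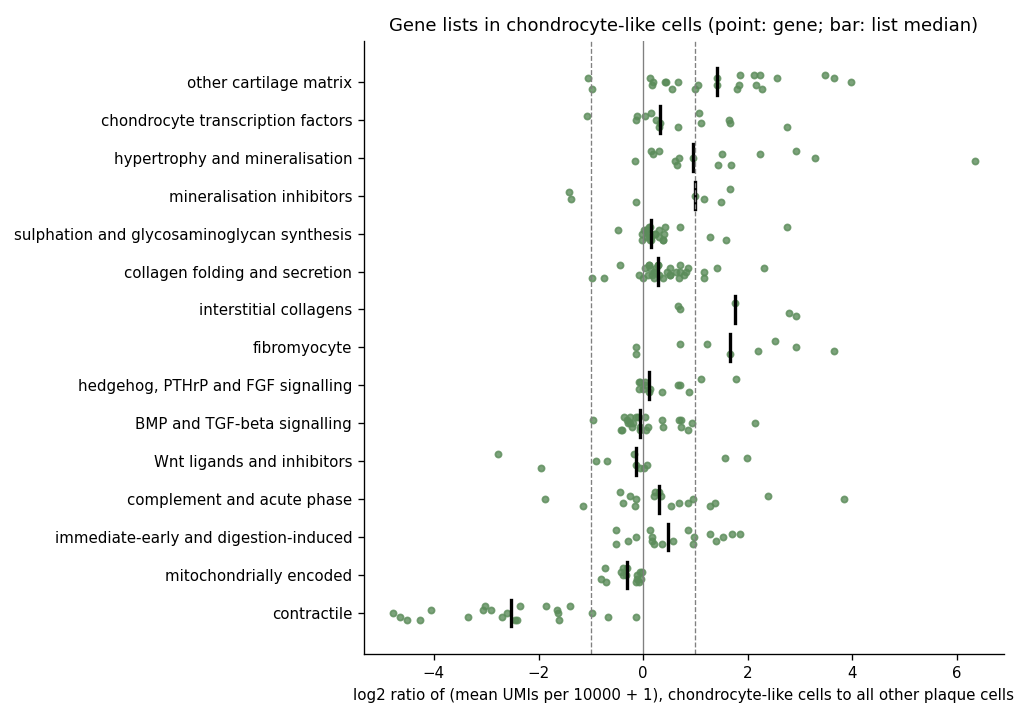
Log2 ratio of mean UMIs per 10000 plus 1 between 140 chondrocyte-like cells and 2291 other plaque cells (horizontal axis) for the measurable genes of 15 lists (vertical axis). Each point is a gene, each black bar the median of the list, and dashed lines mark ratios of −1 and 1. Other cartilage matrix genes have a median of 1.41 and contractile genes of −2.53.

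Transcription factors of chondrocytes followed a narrower pattern. Sox9 averaged 9.12 in ApoE-/- cells (lowest 0, median 5.71, highest 62.7) and 11.8 in Trf2T188A/ApoE-/- cells (1.23, 9.66, 47.4), against 0.675 in other plaque cells, and was found in 139 of 140 cells. In the ligation libraries 2345 of 4967 control and 2633 of 5392 SM22a-TRF2T188A cells also had a Sox9 UMI, at means of 1.15 and 1.01. The SOX9 partners Sox5 and Sox6 had ratios of 1.104 and 1.64, and Trps1, a repressor active in growth plates, and Runx1 of 1.66 and 1.08. Arid5b, a chromatin cofactor of SOX9, went the other way, at 1.64 and 1.63 against 4.57 (−1.08). In all, 5 of 14 measurable factors were past the line upwards and 1 downwards, with a list median of 0.32. Runx2, the factor of hypertrophy and bone, stayed short of the line at a mean of 0.772 over all 140 cells against 0.118 (0.66).

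Genes of hypertrophy and mineral deposition were among the highest. Of 22 listed and 15 measurable, 7 were past the line upwards and none downwards, with a median of 0.95. Ibsp averaged 233 in ApoE-/- cells (0 to 1445, median 78.6) and 76.9 in Trf2T188A/ApoE-/- cells (0 to 523, median 13.5), against 1.09 in other cells, a log2 ratio of 6.34. This was the highest ratio outside the score. Spp1, encoding osteopontin, averaged 184 and 158 against 16.8 (3.29), with medians of 71.8 and 61.7. It was also high in part of the other cells, 83 of which had 100 or more per 10000. Omd, an osteoadherin that binds mineral, Alpl, the phosphatase that releases phosphate for mineral, Slc20a1, a phosphate carrier, Phex and Col10a1 had ratios of 2.93, 2.24, 1.68, 1.504 and 1.43.

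The later genes of bone formation were at low levels. Col10a1, type X collagen, had a UMI in 30 of 82 and 11 of 58 cells and a median of 0 in both libraries, and 6 of the 140 cells had 10 or more per 10000. Bglap and Bglap2, the osteocalcin genes, had a UMI in 15 and 19 of the 140 cells. Sp7, the osteoblast factor osterix, averaged 0.291 and 0.193, and Dmp1, an osteocyte gene, had a UMI in 4 cells. Of 9 osteoblast markers only Ibsp, Alpl and Phex, which hypertrophic chondrocytes also express, were past the line. Col2a1 and Ibsp were found together in 118 of the 140 cells, Col2a1 alone in 21 and Ibsp alone in 1. Since Col2a1 is a score gene found in all but 1 of these cells, the counts restate how often Ibsp had a UMI. Ibsp reached 10 or more per 10000 in 57 of 82 ApoE-/- and 33 of 58 Trf2T188A/ApoE-/- cells, and in 17 other plaque cells.

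Inhibitors of mineral deposition were divided. Enpp1, which makes pyrophosphate, Tnfrsf11b, encoding osteoprotegerin, and Nt5e were past the line upwards, with ratios of 1.16, 1.66 and 1.48, and Gas6 and Smoc1 downwards at −1.42 and −1.38. Mgp, matrix Gla protein, was abundant at 140 and 235 but at 196 in other cells (−0.13). Against the fibromyocyte comparison cells, where its mean was 440, it was lower, at 179 over the 140 cells (−1.29).

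Among the highest genes outside cartilage matrix were other genes of secreted proteins. Sparc, a collagen-binding protein, averaged 474 and 353 against 27.8 (3.88), with a lowest ApoE-/- cell of 135, and Cst3, encoding cystatin C, 378 and 260 against 39.1 (3.04). Of 5 measurable interstitial collagen genes 3 were past the line upwards (Col1a1, Col1a2 and Col5a2) and none downwards, with a median of 1.75. Col1a1 and Col1a2, the type I collagen chains, averaged 132 and 77.0, and 130 and 82.4, against 13.5 and 15.1 (2.93 and 2.79). Chondrocyte-like cells therefore carried type I together with type II collagen transcripts. Xylt1, which starts glycosaminoglycan chains, Chst11, a chondroitin sulphotransferase, and Papss2, which makes the sulphate donor, had ratios of 2.75, 1.59 and 1.28 as the 3 of 26 measurable sulphation and glycosaminoglycan genes past the line (list median 0.16). Of 34 genes for collagen folding and secretion, 4 were past the line upwards, namely Pcolce2 (2.31), Serpinh1 (1.42), Plod2 (1.17) and Loxl3 (1.16), and 30 had a ratio above 0, with a median of 0.29.

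Among signalling genes few differences reached the line. Pth1r, the receptor for parathyroid hormone-related protein, averaged 4.64 and 1.80 against 0.310 (1.77), and Fgfr3, a growth plate receptor, 1.24 over the 140 cells against 0.0397 (1.11), as the 2 of 14 hedgehog, PTHrP and FGF genes past the line. Ihh, the hedgehog ligand of hypertrophic cartilage, and Pthlh had a UMI in 6 and 3 of the 140 cells. Gdf10 was the 1 of 25 BMP and TGF-beta genes past the line, at 5.98 and 6.95 against 0.674 (2.14). The secreted Wnt inhibitors Frzb and Wif1 were high (1.99 and 1.57), while Sfrp2 and Sost, inhibitors of the same pathway, were low (−1.95 and −2.78). Mmp2 (1.64) was the 1 of 16 proteases and inhibitors and Cox4i2 (1.87) the 1 of 19 hypoxia and glycolysis genes past the line, and the medians of these lists, −0.06 and 0.03, lay close to that of all genes.

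Genes of other VSMC states and of inflammation were mixed. Of 9 measurable genes listed for fibromyocytes, 6 were past the line upwards and none downwards, with a median of 1.66, among them Dcn, at 99.4 and 148 against 19.9 (2.53), and Lum, encoding lumican, at 31.1 and 47.4 against 15.6 (1.23). Of 8 genes of intermediate states, Spp1, Runx1 and Lgals3 (1.48), the galectin 3 gene, were past the line upwards and Vcam1, an adhesion molecule, downwards (−1.003). The complement and acute phase list, which also holds the chemokine genes Cxcl1 and Ccl2, had 4 of 19 genes past the line upwards. They were Chil1 (3.85), Hp (2.39), Lcn2 (1.37) and Saa3 (1.29). Another 2 were past it downwards, among them Serping1, which restrains complement (−1.16), and the list median was 0.31. This list depended on the library, with a median of −0.09 in ApoE-/- and 0.58 in Trf2T188A/ApoE-/- plaques. Lcn2 had a ratio of 0.17 and 1.88, and Chil1 of 1.71 and 4.82, in the ApoE-/- and the Trf2T188A/ApoE-/- library.

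Contractile genes were low. Of 22, all measurable, 19 were past the line downwards and none upwards, with a median of −2.53. Summed over the list, chondrocyte-like cells had a median of 9.52 in ApoE-/- (3.28 to 329) and 10.0 in Trf2T188A/ApoE-/- plaques (3.60 to 72.0), against 443 in other plaque cells. Tagln averaged 2.35 and 2.01 against 87.3 (−4.78), Acta2, smooth muscle actin, 4.14 and 2.94 against 115 (−4.65), and Myh11, smooth muscle myosin, 0.326 and 0.202 against 28.1 (−4.51). Their upstream cofactor Myocd averaged 0.265 and 0.368 against 3.01 (−1.62). Des, Ramp1 and Srf were the 3 that did not reach the line, at −0.66, −0.98 and −0.14. Tmsb4x, an actin-binding peptide, Itga8, Csrp2, Fmo2 and Flna were the other low genes, with ratios from −4.19 to −3.12. Terf2, the gene of TRF2, was rare, at 0.193 and 0.152 with a UMI in 42 of 82 and 23 of 58 cells. Its log2 ratio between the genotypes was −0.05 (−0.14 to 0.04), but with 1 added to means this low the ratio could not reach the line. How transgene reads were counted is not given in the sources used here. Tagln, of which a minimal promoter drives the transgene, was at 2.01 in these Trf2T188A/ApoE-/- cells and 81.3 in other cells of that library. The study describes this minimal promoter as staying active when VSMCs change state, so Tagln RNA need not follow it. Whether the transgene was active in the chondrocyte-like cells was not tested.

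Markers of other cell types stayed low in level, with few exceptions. The authors had kept only clusters expressing Confetti, so low levels were in part set beforehand and do not test which cells plaques hold. Over 10 macrophage markers the summed level per cell ranged from 0 to 7.88 in chondrocyte-like and from 0 to 42.5 in other plaque cells, Cd14 was the only 1 of 10 detected widely enough to be tested (0.39), and Ptprc, the pan-leukocyte gene, had 2 UMIs in 2 cells. The mean sum was higher than in other plaque cells, at 0.559 against 0.181. A macrophage marker UMI was found in 88 of 140 chondrocyte-like and 514 of 2291 other cells, and an osteoclast marker UMI in 89 and 820. Endothelial markers went the other way, with 26 and 975 cells. The other cells were sequenced less deeply. The 7 endothelial markers summed to 0 to 4.62 per cell, the 7 lymphocyte markers were found in 1 cell, at 0.813, and the 4 haemoglobin genes had no UMI among 5555901. Of 7 Schwann cell and melanocyte markers only S100b, which chondrocytes also express, was past the line (1.30), and Sox10, which defines the former, had 1 cell with a UMI. Of 5 tendon markers 3, among them Tnmd and Thbs4, had no UMI. Osteoclast markers averaged 1.46 in sum against 0.399, none past the line, and adipocyte and cardiomyocyte markers 0.0243 against 0.464. The 8 adventitial fibroblast markers summed to a median of 1.34 and 2.95 in the 2 libraries against 1.06 in other plaque cells, with none past the line. Of 14 cell cycle genes 3 were measurable, none past the line.

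Signs of handling and RNA quality moved with the cells as well. The share of UMIs from mitochondrial genes had a median of 1.52% and 0.509% in chondrocyte-like cells and 2.46% and 1.85% in other cells of the ApoE-/- and Trf2T188A/ApoE-/- libraries. All 15 mitochondrial genes had a ratio below 0 against other plaque cells, none past the line. Most genes lay below 0 in this contrast, since 32.2% of all 11444 tested had a ratio above 0. Of 18 immediate-early genes, which tissue digestion can induce, 5 were past the line upwards (Junb, Ier3, Zfp36, Klf2 and Klf4). Their part in the contrasts above was not tested.

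Compared with the nearest cells, the difference was narrower. The next 140 cells in rank, with scores from 0.487 to 1.87, had little Col11a1, at 0.141 against 15.1 over the 140 chondrocyte-like cells (log2 ratio 3.82). Ibsp was at 15.0 against 168 (3.40), and Chil1, Col9a1, Alpl and Phlda1 followed with ratios of 2.94, 2.18, 2.16 and 2.08. At the other end, Tmsb4x was at 36.4 in these neighbours against 4.10 (−2.87) and Tagln at 22.4 against 2.21 (−2.87), followed by Acta2, Sfrp2, Myl9 and Tpm2 with ratios from −2.65 to −2.38. Contractile transcripts were thus higher on average in these next 140 cells, but unevenly so. Summed over the contractile list they had a mean of 110, a median of 29.3 and a highest cell of 938. In the chondrocyte-like cells the mean was 17.5 and the median 9.94. Spp1, at 109 against 173, was inside the fold used (0.66).

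Fibromyocyte comparison cells were the 280 remaining cells highest for 8 matrix and adhesion genes of a fibroblast-like VSMC state (Timp1, Thbs1, Lum, Tnfrsf11b, Ltbp2, Vcam1, Col8a1 and Fbln2). Of 11770 genes tested, 114 (0.969%) were higher and 115 (0.977%) lower in the chondrocyte-like cells. Outside the genes that set the groups, the highest were Ibsp (168 against 1.99), Col11a1, Chil1, Omd, Fmod and Sparc, with log2 ratios from 2.55 to 5.82, and the lowest Tmsb4x, Sfrp2, Tagln, Eln, Lgals1 and Acta2, from −2.94 to −2.41. Eln, the elastin gene, was at 2.43 in chondrocyte-like cells against 20.9. Dcn and Fn1, encoding decorin and fibronectin, had ratios inside the line (0.56 and 0.35), as had Spp1 (0.75). Fewer contractile genes separated these groups, with 10 of 21 past the line downwards and a median of −0.99. Ly6a, a gene of intermediate VSMC states, averaged 0.142 and 0.258 in the chondrocyte-like cells of the libraries and 3.84 in the fibromyocyte comparison cells. Of the immediate-early genes 11 of 18 were higher in the chondrocyte-like cells, with a median of 1.17, and the part of digestion in this contrast was not tested.

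Among the chondrocyte-like cells, genes did not vary along 1 line. For cells thinned to 8000 UMIs, which left 79 and 52 and dropped 9, the Spearman correlation with the score was 0.3 or more for 33 and −0.3 or less for 19 of 2738 genes. These correlations are a description over cells, which share a library. Highest were Col11a1 (0.61), Col9a1 (0.58), Cnmd (0.56), Sparc (0.55) and Mia (0.54), and lowest Sulf1 (−0.41), Cyb5r3 (−0.39), Smoc1 (−0.38), Col1a1 (−0.36) and Lgals1 (−0.35). Col2a1 varied with other collagens of the cartilage fibril (correlation 0.65 with Col11a1 and 0.59 with Col9a1), but little with Ibsp (0.14) or Comp (0.03).

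Another group of genes varied together, made of Ibsp, Alpl and Pth1r (correlations of 0.56 to 0.63 among these genes), with Chad beside Ibsp (0.45). A further group held Chil1, Lcn2, encoding the iron-binding protein lipocalin 2, and C3, the central complement component (0.55 to 0.59), with Lum beside C3 (0.54) and Dcn beside Clu (0.56). The lowest pairs were Acan with Clu (−0.43) and Col2a1 with Clu (−0.41). Within single libraries each of these pairs had the same sign, with a correlation for Chil1 and C3 of 0.25 in ApoE-/- and 0.67 in Trf2T188A/ApoE-/- cells. Ibsp and Chil1 had a correlation of 0.02 over all cells, and of −0.10 and 0.40 within the libraries. At least 1 UMI of both was found in 41 cells, and 14 cells had neither.

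**Figure D3:**
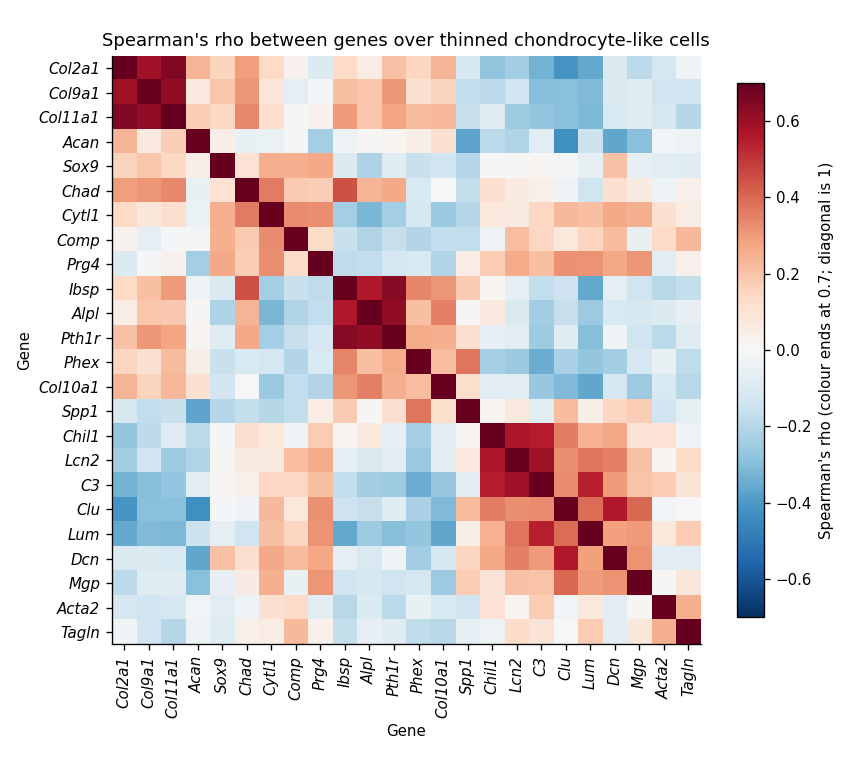
Spearman correlation between 24 genes (both axes) over 131 chondrocyte-like cells thinned to 8000 UMIs, in colour from blue (negative) to red (positive). Blocks of high correlation hold Col2a1, Col9a1 and Col11a1, then Ibsp, Alpl and Pth1r, then Chil1, Lcn2 and C3.

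Between the genotypes, few genes differed within the chondrocyte-like cells. Of 11308 genes tested, 18 (0.159%) were past the line upwards in Trf2T188A/ApoE-/- cells and 5 (0.0442%) downwards, around a median of −0.002. A ratio above 0 was found for 48.8% of all genes tested, the share to set beside the sign counts of lists below. The comparison rests on 58 and 82 cells of 1 library each, and the cells differed in their place along the score, with a median of 3.62 in ApoE-/- and 3.09 in Trf2T188A/ApoE-/- cells. Among the genes called lower, Col11a1 and Col9a1 had the highest correlations with the score (0.61 and 0.58), and the part of the score in their ratios was not tested.

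Genes of the complement and acute phase list, which also holds the chemokine genes Cxcl1 and Ccl2, made up 7 of the 18 higher genes. Like the other lists, this list was chosen with earlier results of these data known, so its counts are descriptions. Of 19 measurable genes of this list, 7 were past the line upwards (Chil1, Lcn2, Cxcl1, Clu, C3, Ccl2 and Lbp) and none downwards. A ratio above 0 was found for 18, with a median of 0.46, and Cxcl1, Ccl2 and Lbp did not hold under every setting given below. The exception was Saa3, encoding serum amyloid A3, at 3.31 in ApoE-/- and 1.15 in Trf2T188A/ApoE-/- cells (−0.999), close to the line, and at 0.01 without the 5 highest cells of each library. Chil1 averaged 2.41 in ApoE-/- cells (lowest and median 0, highest 159) and 32.1 in Trf2T188A/ApoE-/- cells (0, 0.191, 405). The log2 ratio was 3.28 (3.20 to 3.36), against 0.17 in other plaque cells. With a mean of 0.0888 in those cells and 1 added to each mean, the ratio there could not reach the line. Chil1 had a UMI in 18 of 82 chondrocyte-like cells (22.0%, 13.6 to 32.5%) and in 30 of 58 (51.7%, 38.2 to 65.0%). At equal depth the shares were 11.4% and 40.4%, and 0.514% in contractile comparison cells. Its transcripts came from few cells, since 1 ApoE-/- and 7 Trf2T188A/ApoE-/- cells had 100 or more per 10000, and without the 5 highest cells of each library the ratio was 3.498.

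Lcn2 averaged 2.53 (0, 0.201, 50.9) and 18.8 (0, 6.20, 145), a ratio of 2.49 (2.40 to 2.58) against 0.77 in other plaque cells. At equal depth 26 of 79 and 39 of 52 cells had a UMI, with 5.97% in contractile comparison cells, and the ratio without the 5 highest cells of each library was also 2.49. The libraries overlapped, with the shift in most of the range and not in the highest cells alone. C3 averaged 2.23 (0, 0.530, 24.2) and 7.31 (0, 5.71, 23.0), a ratio of 1.36, and Clu, the extracellular chaperone clusterin, 12.8 (0.304, 5.89, 98.8) and 34.7 (0.851, 14.5, 158), a ratio of 1.37. For C3 the highest cells of the libraries were close and the medians apart. Lbp, a binding protein for bacterial lipopolysaccharide, averaged 0.407 and 2.01, and its ratio was past the line (1.096) but not without the 5 highest cells (0.84).

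Several other genes of this direction rested on single cells or on shallow ones. Ccl2, a chemokine for monocytes, had a UMI in 4 of 82 and 7 of 58 cells, and its ratio of 1.29 was 0.04 without the 5 highest cells of each library. In the same way Bpifb1 went from 1.70 to 0.35, Flnc from 1.36 to 0.51 and Eln from 1.18 to 0.21. Gm13889 averaged 6.32 and 23.4 (1.74), but 0.63 when UMIs were summed over cells, and Cxcl1, a neutrophil chemokine, 2.49 and 9.04 (1.52), but 0.79 when summed. Fth1, the ferritin heavy chain, was less affected, at 49.5 (7.94, 37.0, 336) and 113 (3.41, 64.5, 549), a ratio of 1.18, of 1.03 without the 5 highest cells and of 0.95 when summed. Prg4 averaged 9.13 and 22.6 (1.22, and 0.82 without the 5 highest cells), and was likewise higher in other Trf2T188A/ApoE-/- plaque cells (0.95). Mmp3, a matrix protease, was at 0.374 and 1.90 (1.08, and 0.61 without the 5 highest cells).

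**Figure D4:**
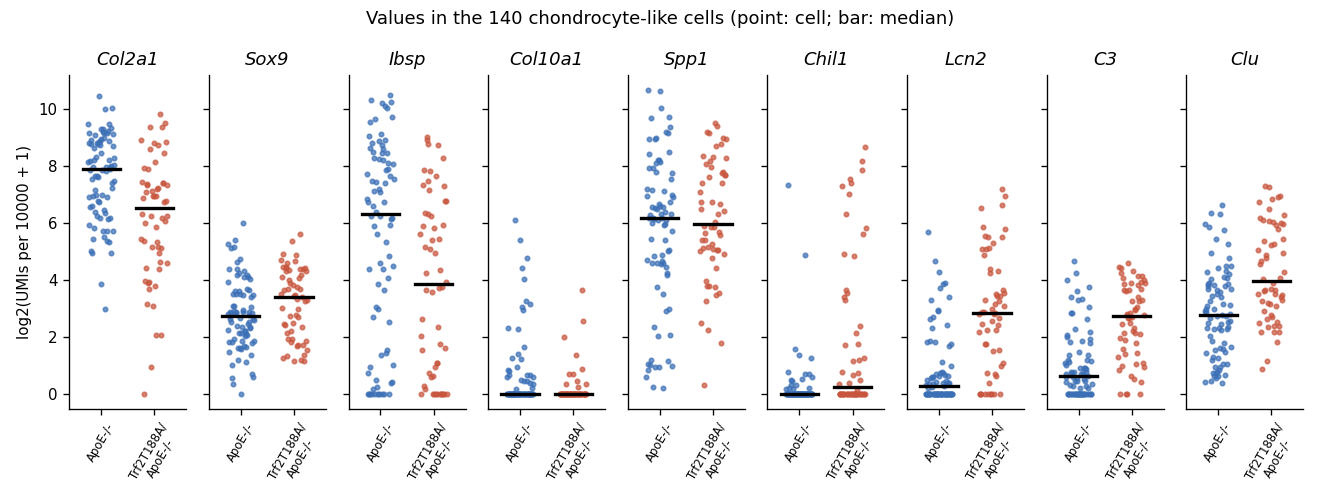
Log2 of UMIs per 10000 plus 1 (vertical axis) for 9 genes in each of 82 ApoE-/- (blue) and 58 Trf2T188A/ApoE-/- (red) chondrocyte-like cells. Points are cells and black bars medians, and the libraries overlap in every panel while the medians of Lcn2, C3 and Clu are higher and those of Col2a1 and Ibsp lower in Trf2T188A/ApoE-/- cells.

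The lower genes in Trf2T188A/ApoE-/- cells were 3 collagen genes, Ibsp and Pth1r. Past the line were Col11a1 (21.4 and 6.24, −1.63, interval −1.71 to −1.54), Ibsp (233 and 76.9, −1.59, −1.62 to −1.55), Col10a1 (2.72 and 0.418, −1.39), Col9a1 (5.28 and 1.958, −1.09) and Pth1r (4.64 and 1.80, −1.01). When UMIs were summed over cells, the last 2 were inside the line, at −0.76 and −0.68. None of these differed past the line between genotypes in other plaque cells, where the ratios lay from 0.003 to 0.30. Since 1 was added to each mean, rare genes could not reach the line there, such as Col11a1 at a mean of 0.0164. Whether the differences were particular to the chondrocyte-like cells was not tested. Ibsp was detected about as widely in both libraries, in 87.8% and 81.0% of cells, or 82.3% and 76.9% at equal depth, so the libraries differed in level. In ApoE-/- plaques 39 of 82 cells and in Trf2T188A/ApoE-/- plaques 14 of 58 had 100 or more per 10000. Without the 5 highest cells of each library its ratio was −1.93. Col10a1 was different, since 26.6% and 9.62% of cells had a UMI at equal depth and the ratio was −0.68 without the highest cells.

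Of the 15 measurable hypertrophy and mineralisation genes, 2 were past the line downwards, none upwards, and 13 had a ratio at or below 0, with a median of −0.66. Alpl averaged 5.11 in ApoE-/- cells and 2.88 in Trf2T188A/ApoE-/- cells (−0.66), but 45 of 82 and 10 of 58 had a UMI, and 1 Trf2T188A/ApoE-/- cell at 133 carried much of its mean. Phex averaged 2.88 and 1.27 (−0.78), Omd 10.7 and 6.31 (−0.68), and without the 5 highest cells of each library Alpl, Phex and Omd had ratios of −1.77, −1.03 and −1.15. Also lower was Smpd3, a phospholipase needed for bone mineral, at 1.48 and 0.316 (−0.91). Bglap and Bglap2 averaged 0.973 and 0.0205, and 0.902 and 0.0111, but rested on few cells, with ratios of −0.21 and −0.14 without the 5 highest. Spp1 was inside the line (184 and 158, −0.22), while in other plaque cells it was higher in Trf2T188A/ApoE-/- (9.20 and 29.3, 1.57). Mgp, the mineral inhibitor, was higher at 235 against 140 (0.75), short of the line.

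All 8 score genes, whose values chose the cells, had ratios inside the line, from −0.87 to 0.11 and a median of −0.44, and Col2a1 averaged 299 and 163 (−0.87, −0.89 to −0.85). Without the 5 highest cells of each library its ratio was −1.16, and that of Snorc −1.41. Cytl1 was the only 1 of the 8 above 0 (0.11). The other cartilage matrix genes had a median of −0.09, with Col9a1 and Col11a1 past the line downwards and Prg4 upwards, and Sox9 was at 0.34 (0.24 to 0.44). Col1a1 and Col1a2 had ratios of −0.77 and −0.65, against 0.53 and 0.41 in other plaque cells, all inside the line. Dcn, Lum and Col3a1 were at 0.57, 0.59 and 0.57.

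**Figure D5:**
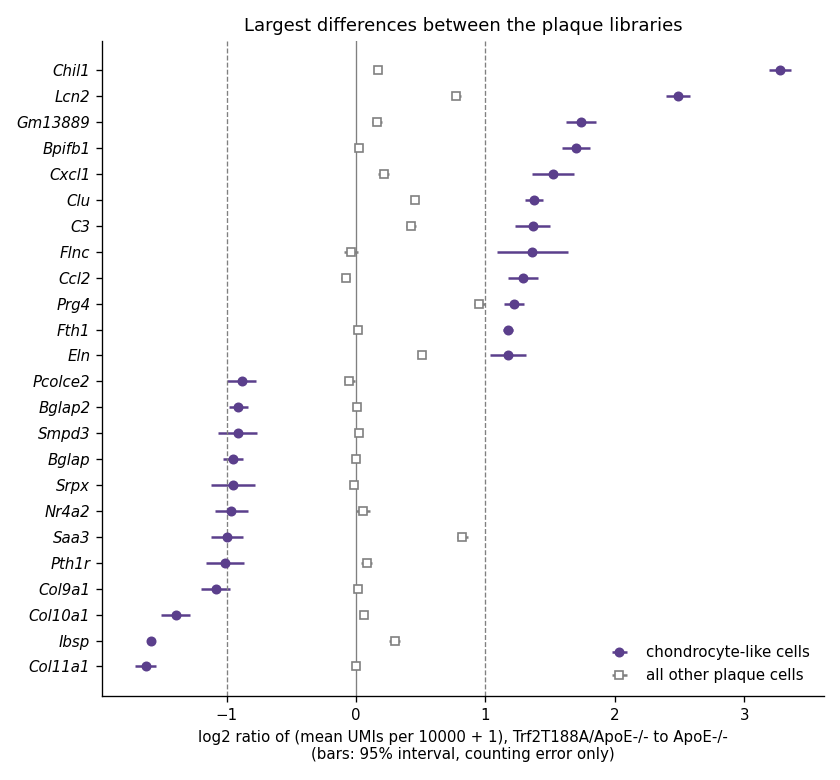
Log2 ratio of mean UMIs per 10000 plus 1, Trf2T188A/ApoE-/- to ApoE-/- (horizontal axis), for the 12 highest and 12 lowest genes in chondrocyte-like cells (filled circles) and the same genes in all other plaque cells (open squares). Horizontal bars are 95% intervals of counting error, dashed lines mark −1 and 1, and the circles run from −1.63 (Col11a1) to 3.28 (Chil1).

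Contractile genes, at their low level, did not differ past the line between the genotypes (0 of 20, median 0.01), nor did immediate-early genes (0 of 18, median 0.18). Shelterin genes encode the telomere complex that TRF2 belongs to, and 0 of 7 were past the line (median −0.03). Their sum averaged only 0.785 in ApoE-/- and 0.612 in Trf2T188A/ApoE-/- cells. With 1 added to each mean, none of them could have reached the line, so this count cannot show whether they differed. Of 11 measurable senescence genes 2 were past the line upwards (Ccl2 and Cxcl1), none downwards, and 10 had a ratio above 0, with a median of 0.16. Both higher genes are also on the complement and acute phase list. The ratio of Ccl2 rested on few cells, and that of Cxcl1 was inside the line with summed UMIs, as given above. Against other plaque cells 2 of 11 were past the line upwards (Cdkn1a and Icam1). Cdkn1a, a senescence marker, averaged 4.88 and 5.07 (0.04), beside 1.25 in other plaque cells (ratio 1.41 to these), and Icam1, an adhesion molecule, 2.04 and 4.88 (0.95). Mitochondrial genes had a median ratio of −0.43 with 14 of 15 below 0 and none past the line, and of −0.34 with 15 of 15 below 0 in other plaque cells. Whether RNA quality contributed to the differences between the libraries was not tested.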

How the data were processed

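Plaque cells had been captured with the 10x Single Cell 3′ v3 kit, and per the submitters' processing notes the reads were processed with Cell Ranger 7.0.0, Seurat 4.3.0 and R 4.2.2. The reads were aligned to a mouse genome of build GRCm38. The deposited signal values were made by the authors, who scaled the UMIs of every cell to a sum of 10000. Per the study's methods, ApoE-/- cells with under 1500 genes, Trf2T188A/ApoE-/- cells with under 1000 genes and cells with over 8% mitochondrial UMIs had been removed, and clusters expressing Confetti were kept. The different gene minimum bears on any comparison of the libraries.

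Every value was a whole number of UMIs within a tolerance of 0.01, so UMIs per cell were recovered (100% of values). The ApoE-/- library held 37869934 UMIs in 1502 cells (median 22765.5) and the Trf2T188A/ApoE-/- library 24064570 in 929 cells (median 24377), over 31765 genes. No count model was run, since there was 1 library per genotype. Values are means over cells of UMIs per 10000, not divided by transcript length, and log2 ratios of these means with 1 added to each. A gene was tested if at least 10% of cells of either group had a UMI, and called at a log2 ratio of 1 or −1. Intervals (95%, delta method for ratios, exact Clopper-Pearson for shares) cover counting error only. Spearman correlations were computed after thinning each cell to 8000 UMIs.

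Fibromyocyte comparison cells were the 280 remaining cells highest for the 8 genes named, and contractile comparison cells the 1000 highest of the rest for Myh11, Acta2, Tagln, Cnn1 and Smtn. Scrublet called 0 of 1502 and 3 of 929 cells (0.323%) doublets, too few to rely on, so no cell was removed and an alternative dropped the 5% of cells scoring highest as doublets. The cells, lists and rules were chosen with earlier results of these data known. Named genes were the score genes, list genes and markers of other cells, the 20 highest and 10 lowest ratios against other plaque cells, the 12 highest and 12 lowest between genotypes, the 10 highest and 10 lowest Spearman correlations with the score, and the 6 highest and 6 lowest against each comparison group. Other genes of these extremes are not all printed, and 1 gene past the line is not reported here. Alternatives were 100 or 200 cells, a score on thinned cells or without Col2a1, a pseudocount of 0.1, differences of mean log2 values, summed UMIs, no detection minimum, each library alone and, chosen after seeing the data, means without the 5 highest cells of each library. The calculations were tested on simulated data. Promoter windows came from RefSeq and gene positions from the GENCODE annotation of GRCm38. Calculations used scanpy 1.11.5, pandas 2.3.3, scipy 1.17.1 and numpy 2.4.6 under Python 3.11.15.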

Additional observations from a re-analysis of the deposited data

Results flagged for a closer look

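For the 2 genes flagged here, the log2 ratio between chondrocyte-like cells and other plaque cells had opposite signs in the libraries. How many of the other tested genes did so is not given. Clu was at −0.20 in ApoE-/- and 0.72 in Trf2T188A/ApoE-/- plaques. Ccl2 was at −0.49 and 0.88, and rested on 4 and 7 chondrocyte-like cells with a UMI. With 1 library per genotype neither difference was tested.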

How the results depend on the processing

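Of 130 summary values under other settings, 96 stayed close and the others moved, 4 of them to the opposite sign. The cause was not tested. The shares of chondrocyte-like cells in ApoE-/- and Trf2T188A/ApoE-/- plaques were 4.13% and 4.09% with 100 cells and 6.99% and 10.2% with 200 cells. Against other plaque cells, a pseudocount of 0.1 gave 522 higher and 973 lower genes, with list medians of 2.52 for other cartilage matrix, 3.04 for hypertrophy and mineralisation, −3.84 for contractile and 0.45 for complement and acute phase genes. As differences of mean log2 values, hypertrophy was at 0.47 and complement at 0.066. With summed UMIs complement was at −0.019, the opposite sign. Within the ApoE-/- library hypertrophy was at 1.27 and complement at −0.089, again the opposite sign, and within the Trf2T188A/ApoE-/- library they were at 0.42 and 0.58. These medians cover the genes measurable with both libraries pooled, and over the 12 hypertrophy genes measurable in the Trf2T188A/ApoE-/- library itself the median was 0.79.

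Between genotypes, where 18 genes were higher and 5 lower, the higher genes numbered 11 with the score on thinned cells, 104 with a pseudocount of 0.1, 9 by mean log2 values and 10 with summed UMIs. The lower genes numbered 16 with 100 cells, 67 with a pseudocount of 0.1, 12 by mean log2 values and 9 with summed UMIs. The contractile median of 0.01 was 0.30 with 200 cells, −0.10 with the score on thinned cells, 0.18 without the highest doublet scores and −0.19 with summed UMIs, so with the thinned score and with summed UMIs it had the opposite sign. The complement median was 0.84 with a pseudocount of 0.1, and the hypertrophy median −0.28 by mean log2 values. Genes with a Spearman correlation of −0.3 or less with the score numbered 39 in ApoE-/- cells alone and 84 in Trf2T188A/ApoE-/- cells alone, and those of 0.3 or more 81 in the latter. For single genes, 355 values against other plaque cells stayed close and 25 moved, and between genotypes 174 and 42. Thinning the score left 131 of the 140 cells in place and leaving out Col2a1 132. No paired analysis was possible because each genotype had 1 library. Depth limited rare transcripts, such as Terf2 at under 1 UMI per 10000.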
